A study of Mus musculus with 9 samples.

Results

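The genes described are 10 markers of adventitial fibroblasts, Thy1, Ly6c1, Ly6a, Cd34, Cd248, Pi16, Mfap5, Dpp4, Anxa3 and Clec3b. They were taken by symbol, with every array probe that the platform annotation names for them. Of the 10 genes, 9 had a named probe, among 19057 genes with a named probe in all. No probe is named for Ly6a, so it was not analysed here. The markers were chosen with results of these same arrays known, in which Thy1 and Ly6c1 were higher at day 11. Their changes between the groups are therefore given as a description, and counts of markers past a threshold are printed only beside the share over all genes.

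Adventitial fibroblasts lie in the outer coat of vessels and in the capsule of organs, lymph nodes included, and carry CD34 and Ly6 proteins on their surface. A closely related state, marked by Pi16 and Dpp4, is found in the fibroblasts of many mouse tissues. The reticular cells of the lymph node paracortex, by contrast, are known for the chemokines Ccl19 and Ccl21a. Several of the markers are not restricted to fibroblasts: mouse T cells carry Thy1 and many carry Ly6 proteins, and vascular endothelium carries Cd34 and often Ly6c1.

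RNA came from lymph node stroma labelled as fibroblastic reticular cells (FRCs), which build the scaffold of the node, of female C57BL/6 mice, and was amplified as whole transcriptome before hybridisation to Illumina bead arrays. Each array held the FRCs of the 2 brachial nodes of an animal, pooled. There were 3 arrays from nodes draining a PBS site, 3 from tumour-draining nodes at day 4 and 3 from tumour-draining nodes at day 11. The labels give no tumour type, no age and no day for the PBS group, and the sources used here do not say how FRCs were separated from other cells. So tumour and time since the start cannot be told apart in a comparison with PBS. All 3 groups shared the strain and sex, and the PBS arrays are the controls of both tumour comparisons.

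Between 9606 and 17627 probes were detected per array, with the lowest number on day 11 replicate 3, and r between arrays ran from 0.776 to 0.932 across probes. PBS replicate 1 stood apart, with 11529 detected probes against 16489 and 15346 on the other PBS arrays and a mean r of 0.783 with the other arrays of its group, the lowest of the 9. Results that rest on it are given with and without it below. The FRC label was checked against defining markers. The stromal genes Pdpn, Pdgfra and Col1a1 and the reticular chemokines Ccl19 and Ccl21a were detected on 9 of 9 arrays, and Pdgfrb on 4. Of the endothelial markers, Cdh5 and Lyve1 were detected on 0 arrays, Prox1 on 1 and Pecam1 on 4. Other endothelial genes were detected more widely, Mmrn1 and Plvap on all 3 arrays of each group. In PBS, day 4 and day 11, Tek was detected on 2, 3 and 3 arrays and Eng on 3, 3 and 1. Tie1 (2, 1 and 0) and Cldn5 (1, 1 and 1) were detected less often. Transcripts of endothelial genes were thus present. Leukocyte RNA was present: Ptprc was detected on 9 arrays, the T cell receptor subunits Cd3e, Cd3d and Cd3g on 8, 7 and 3, Cd8a on 6 and Cd4 on 1.

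Promoter sequence is shown for a marker that was higher at day 11 on every array, Ly6c1, and for the 1 marker whose day 11 mean lay below the PBS mean, Dpp4. Each is the 250 bases before the gene's start in RefSeq assembly GRCm38.p6, 5′ to 3′ on the gene's strand, at chr15:75048838-75049087 (minus strand) for start site 1 of Ly6c1 and chr2:62412232-62412481 (minus strand) for Dpp4. Capitals mark matches, on either strand, to 4 motifs that were searched. These were the interferon-stimulated response element (a pair of GAAA runs with 2 bases between them), the gamma-activated site TTCNNNGAA, the AP-1 site TGANTCA and the TATA box TATAAA.
Ly6c1: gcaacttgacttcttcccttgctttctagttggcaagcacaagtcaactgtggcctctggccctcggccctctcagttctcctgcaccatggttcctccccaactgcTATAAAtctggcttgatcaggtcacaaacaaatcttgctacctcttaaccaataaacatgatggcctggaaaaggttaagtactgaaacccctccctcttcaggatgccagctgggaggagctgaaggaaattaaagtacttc
Dpp4: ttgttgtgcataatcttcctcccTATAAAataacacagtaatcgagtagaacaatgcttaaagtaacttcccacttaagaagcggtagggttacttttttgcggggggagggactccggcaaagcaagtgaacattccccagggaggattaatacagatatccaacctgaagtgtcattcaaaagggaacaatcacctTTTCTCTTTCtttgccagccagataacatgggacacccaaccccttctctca
The Ly6c1 window held TATAAA 143 bases before the start. The Dpp4 window held TATAAA 227 bases and, on the other strand, the interferon-stimulated response element 52 bases before the start. Of 32851 such windows over all genes, 12.4% held TATAAA, 2.98% the interferon-stimulated response element, 7.02% TTCNNNGAA and 6.75% TGANTCA. The windows of Cd34, Pi16 and start site 2 of Ly6c1 held no match to the 4 motifs. Promoters of Thy1, Ly6a, Cd248, Mfap5, Anxa3 and Clec3b are not shown.

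Levels are log2 intensities after background correction and quantile normalisation. A change is a difference of group means on that scale, with 3 arrays a group. Its standard error (SE) is that of the limma fit, which pools the spread over all 9 arrays and draws it toward that of all tested probes. An offset of 16 was added before the log, so changes of dim probes are understated. Levels of single genes are compared between arrays within a probe. Summed intensities of a list add its probes on the linear scale, so the brightest probes weigh most. They are compared between arrays and not between lists. All 9 genes were detected on 9 of 9 arrays.

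**Figure D1:**
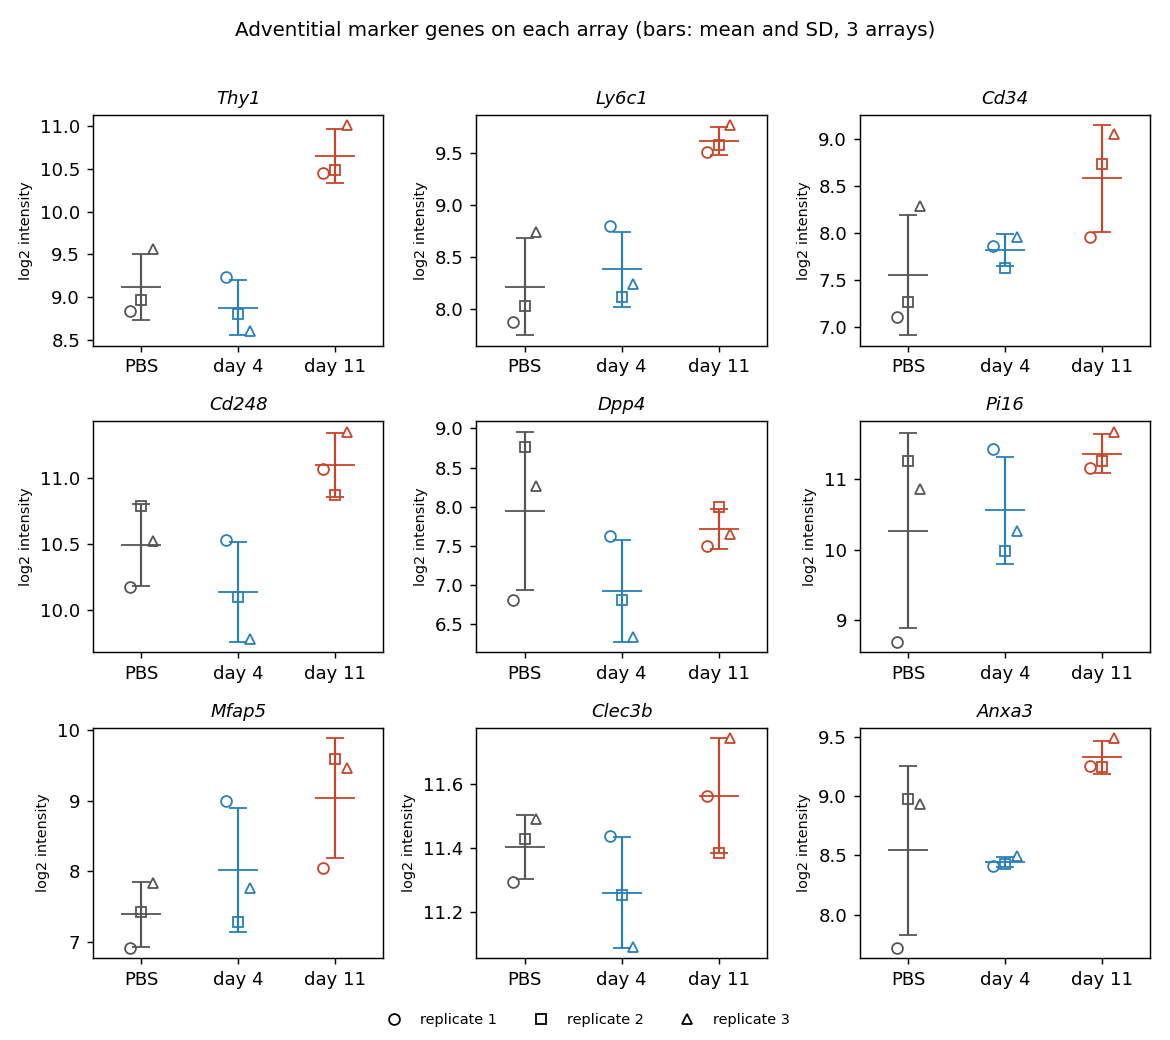
Log2 intensity of the 9 measured adventitial markers on each array, by group. Points are arrays, with the symbol giving the replicate number, horizontal bars are group means and whiskers SD over 3 arrays. Thy1, Ly6c1, Cd248 and Anxa3 have all 3 day 11 arrays above all 6 others, and PBS replicate 1 is the lowest array for Ly6c1, Cd34, Pi16, Mfap5 and Anxa3.

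The surface proteins held in the membrane by a lipid anchor were Thy1 and Ly6c1. Thy1, a small immunoglobulin-like glycoprotein, had a log2 intensity of 8.84, 8.96 and 9.56 in PBS, 9.24, 8.80 and 8.60 at day 4, and 10.46, 10.49 and 11.01 at day 11. The 3 day 11 arrays were above all others, while PBS and day 4 overlapped. The group means were 9.12 ± 0.39, 8.88 ± 0.32 and 10.65 ± 0.31 (SD, n = 3). The day 11 mean was above PBS by 1.53 ± 0.32 (SE), or 2.90-fold, and above day 4 by 1.77 ± 0.32, or 3.42-fold. The day 4 mean differed from PBS by -0.24 ± 0.32, less than its error. Before any correction the Thy1 intensities already separated, from 444 to 819 in PBS, 464 to 684 at day 4 and 1427 to 2205 at day 11. The day 11 arrays were brighter as a whole, however, with median raw intensities of 128, 115 and 151, against 81 to 107 on the PBS and day 4 arrays. All these Thy1 values are from its 1 tested probe. The other Thy1 probe, detected on 2 of 9 arrays, did not show the rise, with means of 6.24 in PBS, 5.36 at day 4 and 5.64 at day 11.

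Ly6c1, a Ly6 family protein, read 7.87, 8.03 and 8.74 in PBS, 8.80, 8.12 and 8.24 at day 4, and 9.50, 9.58 and 9.77 at day 11. Again every day 11 array lay above every other array. The mean at day 11 exceeded PBS by 1.40 ± 0.32 (2.64-fold) and day 4 by 1.23 ± 0.32, and day 4 differed from PBS by 0.17 ± 0.32. Ly6c1 has a near-identical neighbour, Ly6c2, with no named probe here, so how much of this signal is from each copy is uncertain. Among the cells that carry the protein of either copy are monocytes, T cells and endothelium.

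Among the transmembrane proteins, Cd34, a sialomucin, read 7.11, 7.27 and 8.28 in PBS, 7.87, 7.63 and 7.96 at day 4, and 7.95, 8.73 and 9.05 at day 11. Day 11 replicate 1 was below PBS replicate 3 and day 4 replicate 3, so the groups overlapped. The day 11 mean was above PBS by 1.02 ± 0.39 and above day 4 by 0.76 ± 0.39.

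Cd248, the stromal glycoprotein endosialin, was measured by 2 probes. The brighter read 10.17, 10.79 and 10.52 in PBS, 10.53, 10.10 and 9.78 at day 4, and 11.07, 10.87 and 11.35 at day 11, a change from PBS to day 11 of 0.60 ± 0.31. The dimmer read 6.72, 7.07 and 7.66 in PBS, 7.62, 7.58 and 7.20 at day 4, and 8.57, 8.07 and 9.19 at day 11, a change of 1.46 ± 0.36. On both probes day 11 lay above all other arrays, but the probes disagreed on the size, and at day 4 on the sign (-0.36 ± 0.31 and 0.31 ± 0.36).

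Dpp4, a surface peptidase that cleaves dipeptides from chemokines and other peptides, had its highest mean in PBS. Its intensities were 6.81, 8.76 and 8.26 in PBS, 7.62, 6.81 and 6.34 at day 4, and 7.49, 8.0 and 7.65 at day 11. The PBS arrays spanned nearly the whole range, and all groups overlapped. Day 4 differed from PBS by -1.02 ± 0.50, day 11 from PBS by -0.23 ± 0.50, and day 11 from day 4 by 0.79 ± 0.50.

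Of the secreted and matrix proteins, Mfap5, a glycoprotein of fibrillin microfibrils, had the highest day 11 change against PBS of the 9 genes. This rank was not kept in every setting. Thy1 was higher with no background correction (1.39, against 1.24 for Mfap5) and with the authors' processed values (1.39, against 1.30). Without day 11 replicate 2 the Mfap5 change was 1.36, below that of Thy1, so the rank also depended on that array. Mfap5 read 6.92, 7.43 and 7.84 in PBS, 9.0, 7.29 and 7.77 at day 4, and 8.05, 9.59 and 9.46 at day 11. Day 11 was above PBS without overlap, by 1.64 ± 0.53 (3.11-fold), but day 4 replicate 1 exceeded day 11 replicate 1. The day 11 mean exceeded day 4 by 1.01 ± 0.53, or 0.65 without day 4 replicate 2, and the day 4 mean exceeded PBS by 0.62 ± 0.53, or 0.14 without day 4 replicate 1.

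Pi16, a protein named as a peptidase inhibitor, read 8.70, 11.25 and 10.85 in PBS, 11.41, 9.97 and 10.27 at day 4, and 11.14, 11.25 and 11.66 at day 11. Its difference of 1.08 ± 0.62 between day 11 and PBS lay mostly in PBS replicate 1, since PBS replicate 2 lay within the day 11 range and replicate 3 close below it. Clec3b, the secreted lectin tetranectin, stayed between 11.09 and 11.74 on all 9 arrays, with a day 11 change of 0.16 ± 0.25.

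Anxa3, an annexin that binds phospholipid in the presence of calcium, was measured by 2 probes whose day 11 changes were close. The brighter read 7.72, 8.98 and 8.93 in PBS, 8.41, 8.42 and 8.49 at day 4, and 9.25, 9.24 and 9.49 at day 11, a change of 0.79 ± 0.35. The dimmer read 8.19, 8.37 and 8.76 in PBS, 8.08, 8.17 and 8.15 at day 4, and 9.02, 9.23 and 9.31 at day 11, a change of 0.75 ± 0.26. Both had every day 11 array above every other array, and on the dimmer probe the 3 day 4 arrays were also below the 3 PBS arrays, by -0.31 ± 0.26.

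**Figure D2:**
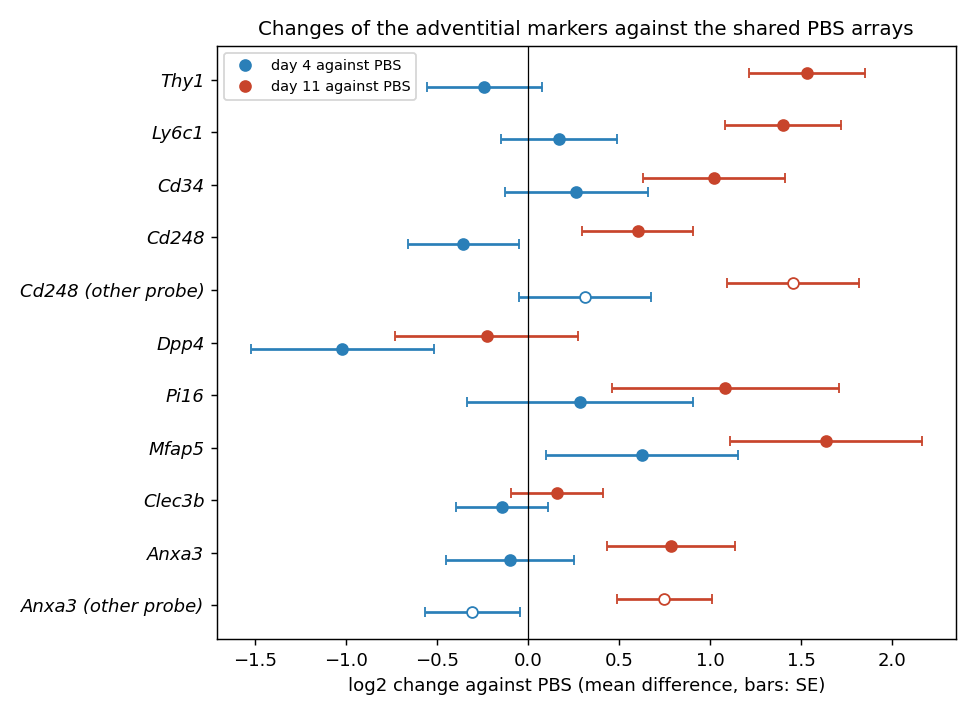
Log2 change of each adventitial marker at day 4 (blue) and day 11 (red) against the shared PBS arrays, with SE bars. Filled points are the gene's brightest tested probe and open points its other probe. At day 11 the changes run from -0.23 (Dpp4) to 1.64 (Mfap5) for the filled points, and at day 4 from -1.02 (Dpp4) to 0.62 (Mfap5).

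Over the 9 measured markers, the median change was -0.10 at day 4 against PBS, 1.02 at day 11 against PBS and 0.88 at day 11 against day 4, where the medians of the 8819 genes tested were 0.04, 0.05 and 0.02. Day 11 was above PBS without overlap for 5 of 9 markers (Thy1, Ly6c1, Cd248, Mfap5 and Anxa3), and 10.9% of all genes were so. Day 11 was above day 4 without overlap for 4 of 9 (Thy1, Ly6c1, Cd248 and Anxa3), beside 7.9% of all genes, and below it for 0, beside 7.6%. At day 4, 0 of 9 lay above or below PBS without overlap, beside 6.23% and 4.31% of all genes. In the limma fit over all probes, 0 of 9 passed an adjusted p of 0.05 in any comparison, with 0% of genes called higher at day 4, 0.0113% at day 11 against PBS and 0.0113% at day 11 against day 4. At an unadjusted p under 0.05 in that fit, 0, 5 and 4 markers were higher, beside 4.72%, 6.18% and 3.11% of all genes, and 0 were lower in each, beside 3.28%, 4.07% and 3.35%. The count of 5 became 3 without PBS replicate 1, day 11 replicate 2 or day 11 replicate 3. A change of 1 or more was seen for 0, 5 and 3 markers, beside 3.74%, 4.82% and 2.36% of genes, and a change above 0 for 4, 8 and 9, beside 53.8%, 54.1% and 51.5%. Because the markers were chosen on the day 11 contrast, nothing is read from these counts. In bulk RNA, fewer cells of a type and less RNA per cell cannot be told apart, and so also more cells and more RNA per cell.

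The markers differed in how far they rested on PBS replicate 1. This array was below the mean of the other 2 PBS arrays for 9 of 9 markers, by a median of -0.67, beside 54.7% of all genes and a median of -0.09. It was the lowest of all 9 arrays for 5 of 9 markers (Ly6c1, Cd34, Pi16, Mfap5 and Anxa3), beside 24.6% of genes. Without it, the median day 11 change of the markers went from 1.02 to 0.44. Thy1 went from 1.53 to 1.39, Ly6c1 from 1.40 to 1.23, Mfap5 from 1.64 to 1.40 and Cd34 from 1.02 to 0.80. Pi16 went from 1.08 to 0.30, Anxa3 from 0.79 to 0.37 and Dpp4 from -0.23 to -0.80. Cd248 went from 0.60 to 0.44 and Clec3b from 0.16 to 0.10. On the brightest probe of each gene, Thy1, Ly6c1, Mfap5 and Cd34 thus moved by less than Pi16, Anxa3 and Dpp4. The dimmer Anxa3 probe read 8.19 on PBS replicate 1, against 8.37 and 8.76 on the other PBS arrays. Its day 11 change therefore rested less on that array than the change of the brighter probe. At day 4, Pi16 turned from 0.28 to -0.50 and Dpp4 went from -1.02 to -1.59. Day 11 replicate 3 was the highest array for 7 of 9 markers, beside 11% of genes.

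**Figure D3:**
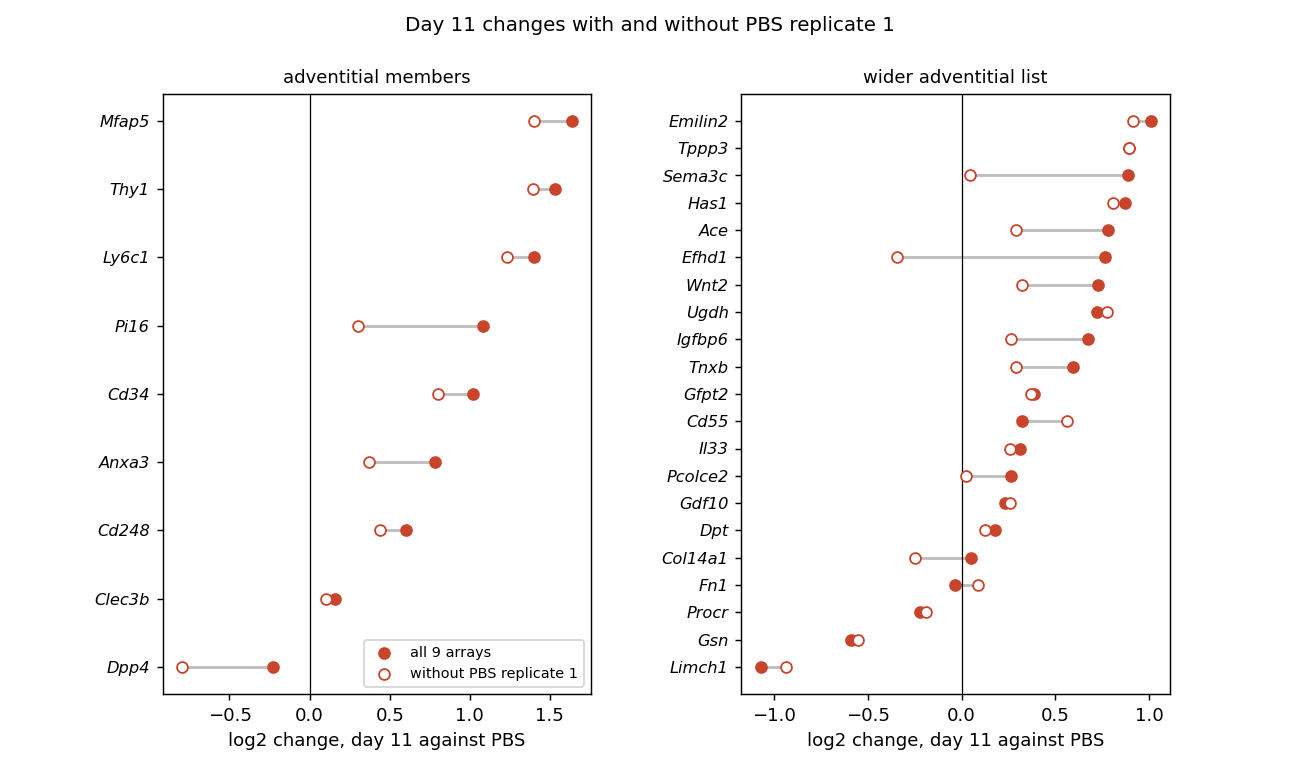
Log2 change at day 11 against PBS for the 9 adventitial markers (left) and the 21 tested genes of the wider adventitial list (right), with all 9 arrays (filled) and without PBS replicate 1 (open). Thy1, Ly6c1 and Mfap5 stay above 1.2, while Pi16 goes from 1.08 to 0.30 and Efhd1 from 0.76 to -0.34 on the probe plotted, though not on its other probe.

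A wider list of 24 other genes that mark adventitial or Pi16-positive fibroblasts was set beside these markers. Of its genes, 23 had a named probe and 21 were tested. Their median change was 0.06 at day 4, 0.38 at day 11 against PBS and 0.34 at day 11 against day 4, and 12, 17 and 17 of 21 were above 0, beside 53.8%, 54.1% and 51.5% of all genes. The last of these medians was 0.16 without day 4 replicate 2 and 0.64 without day 4 replicate 1. Of the 21, 0 passed the adjusted threshold in limma in any comparison, and at an unadjusted p under 0.05, 3 were higher and 1 lower at day 11 against PBS, beside 6.18% and 4.07% of all genes. At that level 1 was lower at day 4, beside 3.28%, and 1 higher at day 11 against day 4, beside 3.11%, so 1 of 21 is near the background. Day 11 lay above PBS without overlap for 4 genes and below it for 2, beside 10.9% and 7.26% of all genes. These were Emilin2, Has1, Tppp3 and Ugdh above and Gsn and Limch1 below, of which Has1 and Ugdh are named after their values were seen.

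The highest day 11 change in the wider list was that of Emilin2, an elastic-fibre glycoprotein, at 1.01 ± 0.39, but its other probe read -0.03. Tppp3, a tubulin-binding protein of tendon sheath and other fibroblasts, came next at 0.89 ± 0.34, and was 0.44 ± 0.34 at day 4. The lowest were Limch1, an actomyosin regulator, at -1.07 ± 0.36 and -1.14 ± 0.36 at days 11 and 4, and the actin-severing protein gelsolin, Gsn, at -0.59 ± 0.30 at day 11. The other Limch1 probe read 0.56 at day 11, so the direction of this gene is not settled. Efhd1, a calcium-binding protein of mitochondria, came next to Limch1 at day 4 with all arrays, at -0.61 ± 0.75. Its PBS arrays read 4.92, 8.18 and 8.30, so replicate 1 sat apart from the other 2. Without replicate 1 its day 4 change was -1.72, below that of Limch1 (-1.0), and its day 11 change went from 0.76 to -0.34. The other Efhd1 probe read 6.04, 7.26 and 6.90 in PBS and 7.5, 7.70 and 8.25 at day 11, a change of 1.08 ± 0.40. On that probe every day 11 array lay above every PBS array, so the probes disagree once replicate 1 is left out. Sema3c, a secreted guidance protein named after its values were seen, had the same pattern, with 5.88, 8.03 and 8.77 in PBS, and its day 11 change went from 0.89 to 0.05 without replicate 1. The median day 11 change of the wider list went from 0.38 to 0.26.

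Thy1 and Ly6c1 were correlated over the 9 arrays (Pearson r 0.96, Spearman rho 0.83), also after the group means were taken out (r 0.91). Pi16 and Dpp4 had r 0.92 after the group means were taken out. Both were lowest in PBS on replicate 1, as was every other measured marker. With the group means left in, the lowest r among the markers was 0.19, between Cd34 and Dpp4. After they were taken out it was 0.17, between Cd248 and Cd34. These values describe 9 arrays that share depth and preparation, and carry no test. The genes most like Thy1 over the arrays were S100a6 (r 0.96), Wdr75 (0.95), Hspb8 (0.94), Adap1 (0.93) and Spon2 (0.93). Those most like Ly6c1 were S100a6 (0.99), H2ac20 (0.96), Ergic1 (0.96), Cd164 (0.96) and Adap1 (0.95). S100a6, a calcium-binding protein, had means of 10.20 in PBS, 10.29 at day 4 and 10.96 at day 11.

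Of the 20 other Ly6 family genes on a list, 17 had a probe and 3 were tested. Ly6e changed by -0.07 at day 4 and 0.10 at day 11, Ly6k by 0.04 and -0.64, and Lynx1 by 0.48 and 0.10, all with SE of 0.30 to 0.41. The other Ly6e probe read -0.27 and -0.12, and the other Lynx1 probe -0.34 and -0.66, so the day 11 sign of both genes depends on the probe.

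Markers of cells that also carry Thy1, Ly6c1, Ly6c2 or Cd34 were set beside these values. The summed intensity of the 9 measured markers was 5354 to 8985 in PBS, 5897 to 9307 at day 4 and 10873 to 14370 at day 11. The summed intensity of the 9 tested T cell genes, of 15 on the list, was 1294 to 1581, 954 to 1545 and 1162 to 1992 in the same order. On the day 11 arrays it was 1960, 1992 and 1162, so replicates 1 and 2 were above all 6 PBS and day 4 arrays, while replicate 3, with the highest Thy1, was below all PBS arrays. The median change of the T cell genes was -0.28 at day 4, -0.0032 at day 11 against PBS (4 of 9 higher) and 0.74 at day 11 against day 4 (7 of 9 higher, 3 at an unadjusted p under 0.05 in limma in either direction). Against PBS at day 11, Cd8b1 was 0.63, Ccr7 0.46 and Cd3e -0.33. T cell genes and the markers thus both had higher medians at day 11 than at day 4, and the part of T cells in the Thy1 and Ly6c1 results was not tested. The 6 tested blood endothelial genes, of 12 listed, summed to 451 to 848, 628 to 700 and 535 to 768. Their median change was 0.03 at day 4 and -0.15 at day 11 against PBS, where 2 of 6 were higher. Between day 11 and day 4 it was 0.05, with 3 of 6 higher. Against PBS at day 11, Tek was 0.96 and Tie1 -0.72. Cdh5, not among the tested genes, was detected on no array, and Plvap on all 3 arrays of each group. The part of endothelial cells in the Cd34 and Ly6c1 results was not tested. Genes of myeloid cells, some of which carry Ly6c1 or Ly6c2 protein, summed to 3006 to 3544, 2001 to 3103 and 3409 to 4015. Their median change was -0.93 at day 4, 0.17 at day 11 against PBS and 0.96 at day 11 against day 4, where 5 of 6 were higher and 4 had an unadjusted p under 0.05 in limma. In that last comparison S100a9 was 1.49, Tyrobp 1.40, Lyz2 1.06, Fcer1g 0.87, Ccr2 0.34 and Aif1 -0.01. Against PBS at day 11, 4 of 6 were higher, while Ccr2 was -0.68 and Fcer1g -0.67. The part of myeloid cells in the Ly6c1 result was not tested. Plasma cell genes summed to 628 to 676, 698 to 869 and 1211 to 1861, highest on the day 11 arrays. Ighg1, an immunoglobulin heavy chain gene, differed most, with means of 4.97 in PBS, where it was detected on 0 arrays, and 9.40 at day 11, where it was detected on 3, while Jchain was -0.43 at day 11 against PBS. Of the 5 tested plasma cell genes, 2 were higher and 3 lower at day 11 against day 4, with a median of -0.19, and their part in the result was not tested.

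**Figure D4:**
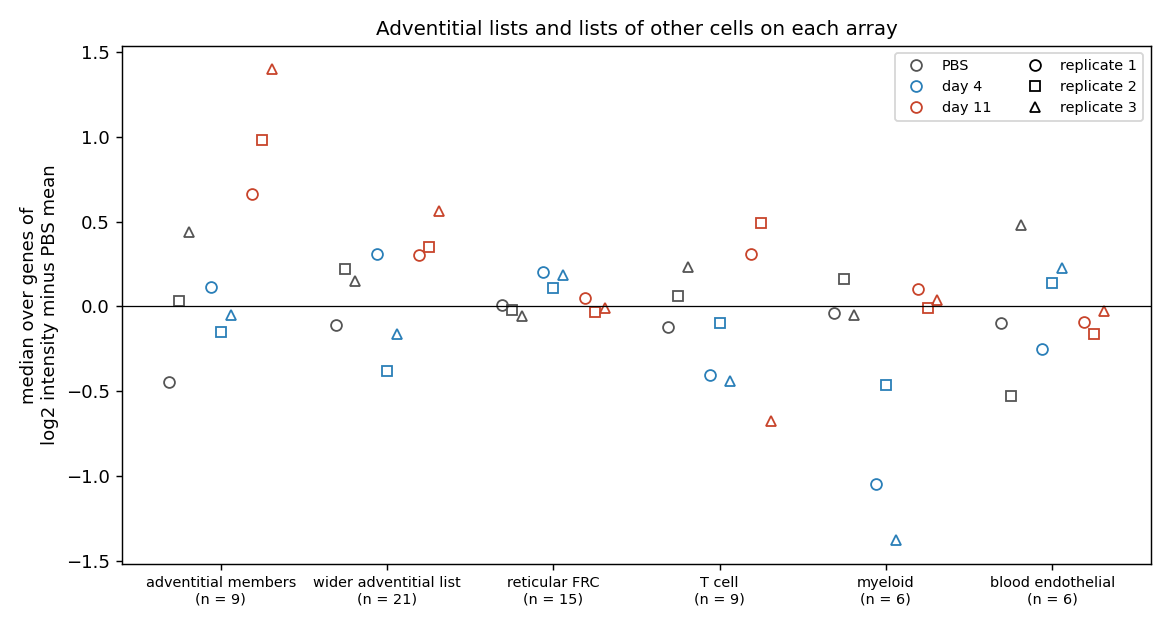
Median over the genes of a list of log2 intensity minus the PBS mean, for each array, with colour for the group and symbol for the replicate. The adventitial markers reach 0.66, 0.98 and 1.40 on the day 11 arrays, while the median of the reticular FRC genes stays within -0.03 to 0.05 there and the T cell genes are lowest on day 11 replicate 3.

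The reticular FRC list, which holds chemokine and stromal genes and is not limited to genes particular to paracortical FRCs, gave a comparison within stroma. Its median change was 0.12 at day 4, -0.02 at day 11 against PBS and -0.25 at day 11 against day 4. Its genes went both ways: against PBS at day 11, Pdpn, the surface glycoprotein podoplanin, was 0.74 ± 0.26, the collagen Col3a1 0.55 ± 0.25 and the T cell survival factor Il7 -0.43 ± 0.31, and of the 15 genes 6 were higher and 9 lower. Per array, the median of the 9 adventitial markers minus their PBS mean was -0.45, 0.03 and 0.44 in PBS, 0.12, -0.15 and -0.05 at day 4, and 0.66, 0.98 and 1.40 at day 11. The day 11 arrays were above all others on this summary, which the choice of members fixes in part.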

How the data were processed

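RNA of FRCs was measured on 9 Illumina bead arrays, 3 per group. The deposited raw table holds an intensity per probe on a linear scale, not normalized between arrays, per the file headers. It also holds a detection p-value per probe, per the file headers. The authors' processed intensities were used as an alternative. The authors used lumi, per the submitters' processing notes.

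Raw intensities were corrected and quantile normalised with neqc (offset 16) of limma 3.58.1 in R 4.3.3, giving log2 values from the deposited intensities. Probes with detection p under 0.01 on at least 3 of 9 arrays were tested, 16577 of 45281, giving 8819 genes. Each gene was represented by its tested probe with the highest mean. Platform symbols (34885 probes with 1, 18 with several, 10378 unnamed) were updated through RefSeq gene IDs for 34807 probes. The lmFit and eBayes functions compared the group means in 1 model of all 9 arrays (6 residual degrees of freedom), and p-values were adjusted by Benjamini-Hochberg across every tested probe. Array number limits the precision, and p-values measure the spread between animals' arrays. The steps were tested on simulated data.

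The members and lists were chosen with earlier results of these data known. The text names all members, the 2 highest and 2 lowest genes of the wider and Ly6 lists per tumour comparison, and the 5 genes most correlated with Thy1 and with Ly6c1. Slide was not in the headers or labels.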

Additional observations from a re-analysis of the deposited data

How the results depend on the processing

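Each result was recomputed under 19 alternatives. The 8 markers with a positive day 11 change against PBS kept that sign under all 19, and all 9 did for day 11 against day 4. Dpp4 turned to 0.18 at day 11 without PBS replicate 2. The markers' median at day 11 against PBS ran from 0.44 without PBS replicate 1 to 1.38 without PBS replicate 3. Averaging a gene's probes gave Cd248 -0.02 at day 4 and 1.03 at day 11. The day 4 signs of Pi16, Anxa3 and Ly6c1 and of the marker and wider-list medians changed when some arrays were left out, and that of Pi16 also under array weights. For day 11 against PBS, 1 gene passed the threshold; there were 4 with no background correction, 11 with a variance prior that follows intensity, and 0 with no filter, with only the groups compared, or with the replicate number as a block. For day 11 against day 4, 1 gene passed, with 2 under that prior and 0 with no filter, only the groups compared, or the replicate block. Leaving out each array gave 0 to 1 genes in both. Under the intensity prior 1 marker, Thy1, passed in each day 11 comparison. Its day 11 level was among the values that led to the choice of markers, so nothing is read from this. The cause of these changes was not tested. Arrays with the same replicate number did not deviate together (r from -0.05 to 0.06). The labels do not say whether the numbers pair animals or processing, and an r near 0 cannot decide it. Slide as a block was not run.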

Other observations

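The other probes of 2 markers were too rarely detected to be tested. The other Thy1 probe was detected on 2 of 9 arrays and read 6.36, 5.30 and 7.07 in PBS, 5.37, 5.69 and 5.01 at day 4, and 5.27, 6.11 and 5.54 at day 11. It did not show the day 11 level of the tested Thy1 probe. The other Dpp4 probe was detected on 1 array.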
